A study of Mus musculus with 6 samples.

Results

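Genes that set the subthreshold excitability of neurons were followed in the transcriptome of CRISPRa-treated primary mouse neurons. *Kcnq3* and *Kcnq5* encode Kv7 potassium channel subunits, and *Hcn2*, *Hcn3* and *Hcn4* encode hyperpolarization-activated cation channel subunits. The 5 genes were chosen by name, and all were found among the 50508 gene symbols listed and among the 19504 genes above 0 in at least 1 library. Primary neurons of C57Bl/6J mouse pups taken on the day of birth were transduced on the next day with lentivirus. In the sgLacZ group (Ctrl-dCas9A, genotype control in the labels) the guide was directed against LacZ, and in the sgKcna1 group (Kcna1-dCas9A, labelled as Kv1.1 upregulation by CRISPRa) it was directed against the *Kcna1* promoter, with 3 libraries per group. Both groups carried nuclease-dead Cas9 fused to the activator VP160 under the Ef1alpha promoter, which is not restricted to neurons. The labels name the hippocampus as the source, whereas the methods of the study name cortical neurons. The labels do not say whether the 3 replicates were separate cultures, so that p-values measure only the spread between these libraries.

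Kv7 channels open slowly below the firing threshold and carry the M-current, a potassium current that holds neurons back from repetitive firing. The M-current is closed by muscarinic and other Gq-coupled receptors, which deplete the membrane lipid PIP2 that keeps the channels open. HCN channels open on hyperpolarization, pass sodium and potassium, and carry the h-current, which sets the resting potential and the integration of dendritic inputs. HCN channels are opened further by direct binding of cAMP. Both currents act below the firing threshold, and both are known for their part in epilepsy.

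The 2 families share the amino acids glycine-tyrosine-glycine of the potassium channel selectivity filter, although HCN channels are only weakly selective for potassium. The 30 bases of coding sequence around this filter are shown for *Kcnq3*, *Hcn3* and *Hcn4* to let the families be compared, with the codons of these 3 amino acids in capitals. The windows were read from the GENCODE vM1 transcript with the longest coding sequence.
Kcnq3: acactggccaccattGGTTATGGAgacaag
Hcn3: cacatgctatgcattGGCTATGGGcagcag
Hcn4: cacatgctgtgcattGGGTATGGAcggcag

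These windows are coding sequence on the NCBIM37 build. For *Kcnq3* (ENSMUSG00000056258.7) the window lies at chr15:65855287-65855316 in exon 6 of 15, on the minus strand. *Hcn3* (ENSMUSG00000028051.4) has it at chr3:88954922-88954951 in exon 4 of 8, on the minus strand, and *Hcn4* (ENSMUSG00000032338.8) at chr9:58703383-58703412 in exon 4 of 8, on the plus strand. *Hcn3* and *Hcn4* were identical at 26 of the 30 bases, whereas *Kcnq3* shared 16 bases with each of them. The remaining members are *Kcnq5* (ENSMUSG00000028033.9) and *Hcn2* (ENSMUSG00000020331.3). The Kv7 genes are long, with 563540 bp for *Kcnq5* and 291054 bp for *Kcnq3*, and the HCN genes are short, from 14123 bp for *Hcn3* to 37444 bp for *Hcn4*.

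The QuantSeq 3′ kit used for the libraries yields reads near the end of each transcript. The deposited values are whole numbers that summed to between 999047 and 999717 per library, so that they were treated as values per 1000000 that the authors rounded. The read depth behind these values is unknown. *Kcna1*, the gene that was targeted, stood at 16 in every sgLacZ library and at 68, 47 and 65 in sgKcna1 (log2 fold change 1.83, 95% confidence interval 1.44 to 2.21, limma adjusted p = 0.0345). This call was lost when any library other than sgLacZ replicate 3 was left out, with adjusted p-values up to 0.143 from limma and log2 fold changes between 1.73 and 1.99.

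The order of the mean values over the 6 libraries was *Kcnq3* (43.5), *Hcn3* (31.2), *Hcn4* (15.2), *Hcn2* (11.3) and *Kcnq5* (8.67), on the deposited scale. A 3′ kit gives about 1 fragment per transcript, so that the values were not divided by transcript length, but how well each 3′ end is primed and annotated also enters the level. *Hcn3* was above *Hcn4* in 6 of 6 libraries and their ranges did not overlap, with 24 as the lowest *Hcn3* value and 22 as the highest *Hcn4* value. The other neighbours in this order overlapped in range. *Kcnq3* exceeded *Hcn3* in 5 of 6 libraries, *Hcn4* exceeded *Hcn2* in 5 of 6, and *Hcn2* exceeded *Kcnq5* in 4 of 6. Among 72 tested genes with an HCN symbol or a potassium channel (Kcn) symbol ending in a number, *Kcnq3* ranked 11, *Hcn3* 15, *Hcn4* 22, *Hcn2* 26 and *Kcnq5* 31. Symbols ending in a letter, such as Kcne1l (mean 13.5), were outside this set. *Kcnq3* lay above 81.4% of all 19504 genes tested, and *Kcnq5* above 56.8%.

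Between the groups, 0 of the 5 genes passed an adjusted p of 0.05 (limma on log2(value + 1), Benjamini-Hochberg adjustment over 19504 genes), where 1.16% of all genes tested passed. At an unadjusted p under 0.05 the number was 1 of 5, *Kcnq5*, against 23.2% of all genes. A two-sided exact permutation test cannot go below p = 0.1 with 3 libraries against 3. The median log2 fold change of the 5 genes was -0.24 and that of all genes tested was -0.02, with 3 members below 0 and 2 above.

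**Figure D1:**
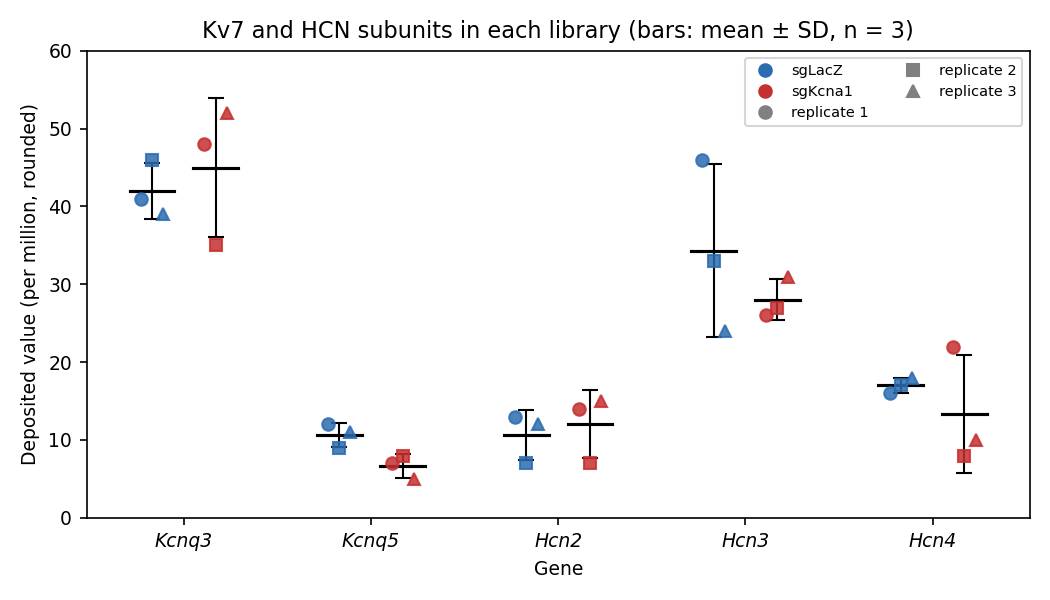
Deposited values (per 1000000, rounded, linear axis) of the 5 genes in each library. Blue marks are sgLacZ, red marks sgKcna1, the shape gives the replicate number, and black bars give mean ± SD (n = 3). Of the 5 genes, the groups are apart only for *Kcnq5*, with 9 to 12 in sgLacZ and 5 to 8 in sgKcna1.

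*Kcnq3*, a core subunit of M-channels in forebrain neurons, was listed at 41, 46 and 39 in the sgLacZ libraries and at 48, 35 and 52 in the sgKcna1 libraries. The highest and the lowest of the 6 values were both from sgKcna1 neurons, so that the sgLacZ values fell inside the sgKcna1 range. The means were 42 ± 3.61 (SD, n = 3) and 45 ± 8.89 (SD, n = 3). In the fit the groups differed by 0.08 on the log2 scale (SE 0.17, limma adjusted p = 0.776), and the 95% confidence interval ran from 0.803 to 1.39 as a fold. This difference was smaller than the spread between replicates, and without sgKcna1 replicate 3 its sign turned (-0.03).

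*Kcnq5*, a Kv7 subunit that also contributes to the slow afterhyperpolarization in hippocampal pyramidal neurons, was listed at 12, 9 and 11 in the sgLacZ libraries and at 7, 8 and 5 in the sgKcna1 libraries. All 3 sgKcna1 values were below the lowest sgLacZ value. Non-overlapping groups were seen for 22.2% of all genes tested, and for 13.3% with sgKcna1 lower, so that 1 such gene among 5 is near the background. The means were 10.7 ± 1.53 (SD, n = 3) and 6.67 ± 1.53 (SD, n = 3). In the fit *Kcnq5* changed by -0.62 on the log2 scale (SE 0.23), with a 95% confidence interval of 0.451 to 0.943 as a fold. The limma p was 0.0288 before and 0.155 after adjustment, and the exact permutation p was 0.1, the smallest possible. Because the values are small whole numbers, rounding alone allows a log2 fold change anywhere between -0.78 and -0.46. When 1 library was left out the log2 fold change lay between -0.74 and -0.45. An adjusted p under 0.05 (0.0425, log2 fold change -0.88, limma) was reached in 1 of 16 other settings, where values were scaled to the summed pan-neuronal markers of each library. In that setting the median log2 fold change over the 13604 genes with a mean of at least 1 was also lower, at -0.33 against -0.06 without it. This call rested on the marker Tubb3, whose values were higher in all sgKcna1 libraries. With values scaled to the other 7 pan-neuronal markers, *Kcnq5* had a log2 fold change of -0.50 (limma adjusted p = 0.272).

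Within a library the ratio of *Kcnq3* to *Kcnq5* does not depend on how the library was scaled. It was 3.42, 5.11 and 3.55 in the sgLacZ libraries and 6.86, 4.38 and 10.4 in the sgKcna1 libraries. Replicate 2 of sgKcna1 lay inside the sgLacZ range and the other sgKcna1 libraries above it. *Kcnq5* made up 20.3 ± 3.42% (SD, n = 3) of the summed *Kcnq3* and *Kcnq5* values in sgLacZ and 13.4 ± 4.95% (SD, n = 3) in sgKcna1. The sum of both genes was 52.7 ± 2.52 (SD, n = 3) and 51.7 ± 7.57 (SD, n = 3), a difference smaller than the SD of either group.

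**Figure D2:**
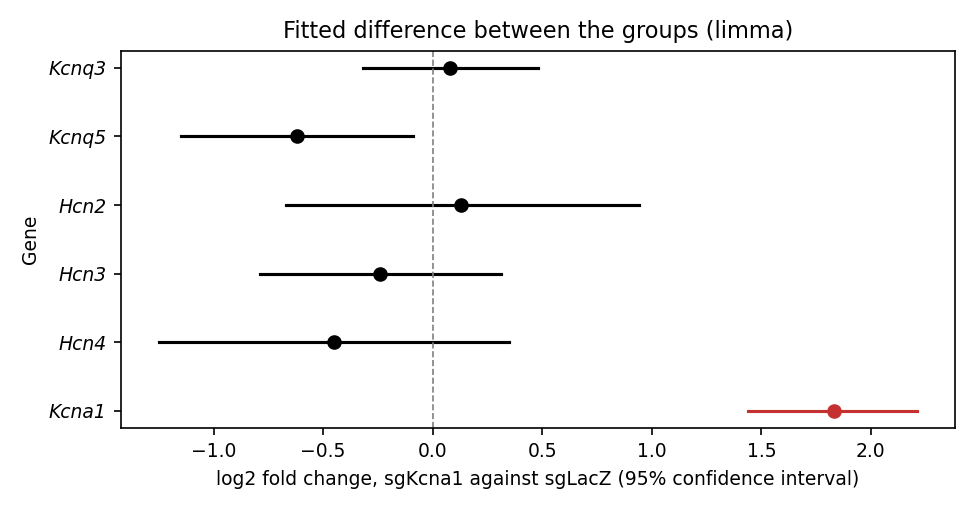
Log2 fold change of sgKcna1 against sgLacZ neurons (horizontal axis) with its 95% confidence interval from limma, for the 5 genes in black and for the targeted gene *Kcna1* in red. The interval of *Kcnq5* runs from -1.15 to -0.09 before any adjustment for multiple tests, those of the remaining 4 members include 0, and that of *Kcna1* starts at 1.44.

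*Hcn2*, a cAMP-sensitive HCN subunit with wide expression in the brain, was listed at 13, 7 and 12 in the sgLacZ libraries and at 14, 7 and 15 in the sgKcna1 libraries. Replicate 2 was the lowest library of both groups, at 7 in each. The means were 10.7 ± 3.21 (SD, n = 3) and 12 ± 4.36 (SD, n = 3). The fitted log2 fold change of 0.13 (SE 0.34, limma adjusted p = 0.827) had a 95% confidence interval from 0.627 to 1.92 as a fold. Its sign turned without sgLacZ replicate 2 (-0.12), without sgKcna1 replicate 3 (-0.05) and, barely, without sgKcna1 replicate 1 (-0.0026), so that *Hcn2* had no stable direction.

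*Hcn3*, the HCN subunit that responds least to cAMP, was listed at 46, 33 and 24 in the sgLacZ libraries and at 26, 27 and 31 in the sgKcna1 libraries. The sgKcna1 values lay inside the wider sgLacZ range, whose highest value was replicate 1. The means were 34.3 ± 11.1 (SD, n = 3) and 28 ± 2.65 (SD, n = 3). This is a fitted log2 fold change of -0.24 (SE 0.23, limma adjusted p = 0.513), with a 95% confidence interval of 0.579 to 1.24 as a fold. Without sgLacZ replicate 1 the log2 fold change was -0.01, and without sgLacZ replicate 3 it was -0.47.

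*Hcn4*, the main pacemaker subunit of the heart and a minor one in most of the forebrain, was listed at 16, 17 and 18 in the sgLacZ libraries and at 22, 8 and 10 in the sgKcna1 libraries. The sgKcna1 libraries were on both sides of the sgLacZ values, with replicate 1 above them and replicates 2 and 3 below. The means were 17 ± 1 (SD, n = 3) and 13.3 ± 7.57 (SD, n = 3). The fit gave -0.45 on the log2 scale (SE 0.34, limma adjusted p = 0.495), with a 95% confidence interval from 0.419 to 1.28 as a fold. It was -0.85 without sgKcna1 replicate 1 (limma adjusted p = 0.112) and -0.18 without sgKcna1 replicate 2, so that its size rested on single libraries.

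*Hcn3* was the largest part of the summed *Hcn2*, *Hcn3* and *Hcn4* values in all 6 libraries. Its share was 54.5 ± 8.94% (SD, n = 3) in sgLacZ and 53.9 ± 11.3% (SD, n = 3) in sgKcna1. The share of *Hcn4* was 28.1 ± 6.17% and 24.1 ± 9.86%, and that of *Hcn2* was 17.3 ± 4.95% and 22 ± 5.07% (SD, n = 3 each). Each of these shares differed between the groups by less than the SD of either group. The sum of the 3 HCN genes was 75, 57 and 54 in the sgLacZ libraries and 62, 42 and 56 in the sgKcna1 libraries, and the groups overlapped. The ratio of the summed Kv7 to the summed HCN members was 0.866 ± 0.139 (SD, n = 3) in sgLacZ and 0.976 ± 0.0768 (SD, n = 3) in sgKcna1.

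**Figure D3:**
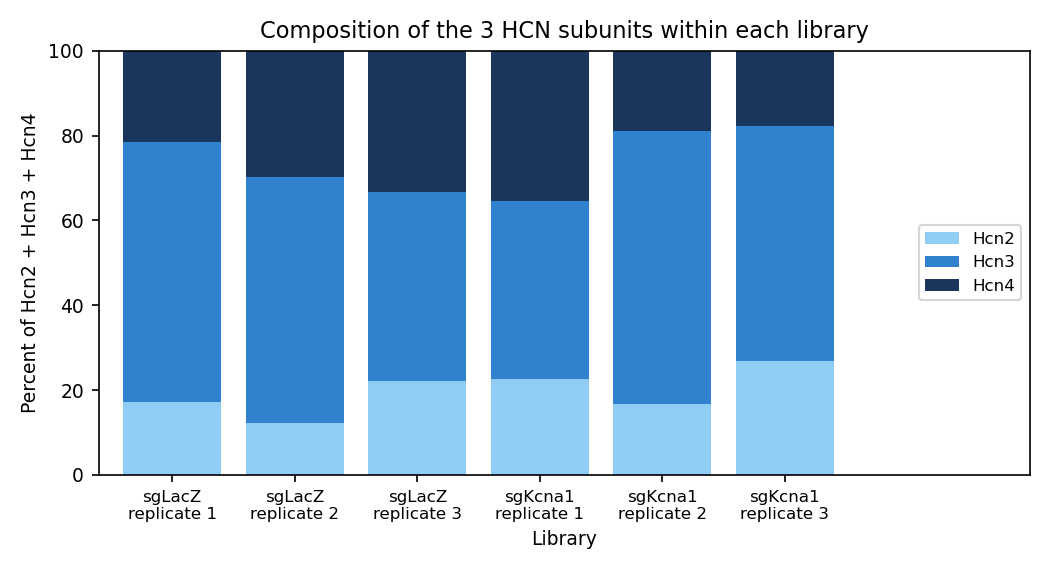
Percent of the summed *Hcn2*, *Hcn3* and *Hcn4* values (vertical axis, 0 to 100) that each gene held in each of the 6 libraries. *Hcn3* (middle part of each bar) held from 41.9% to 64.3%, and *Hcn4* (upper part) from 17.9% to 35.5%, with the extremes of both in the sgKcna1 group.

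The 5 genes did not vary together across the 6 libraries, which share their scaling to a common total. The highest Pearson correlation of log2(value + 1) was that of *Kcnq3* with *Hcn2* (r = 0.53, Spearman 0.75, n = 6 libraries) and the lowest that of *Kcnq3* with *Kcnq5* (r = -0.63, Spearman -0.6, n = 6 libraries). Among the genes with a mean of at least 10, those most like *Kcnq3* were Cacna1a, which encodes the pore of P/Q-type calcium channels (r = 0.992), and the cold-inducible RNA-binding protein gene Rbm3 (r = 0.987). *Kcnq5* was most like Rlbp1 (r = 0.996) and Scamp1 (r = 0.995), *Hcn2* like Gigyf1 (r = 0.987) and Pde3b (r = 0.984), *Hcn3* like Pcp4 (r = 0.991), and *Hcn4* like Cd47 and Inip (r = 0.962 each), all over 6 libraries. With so few libraries such values are common, and between 32 genes (*Kcnq3*) and 245 genes (*Kcnq5*) of about 8050 had an r above 0.9 with a member.

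The partners and regulators of these channels were taken from lists of 65 symbols, of which 55 were tested. None passed an adjusted p of 0.05 (0 of 55), where 1.16% of all genes tested passed. At an unadjusted p under 0.05 (limma) there were 18 of 55, 12 of them lower and 6 higher in sgKcna1, against 23.2% of all genes. Groups did not overlap for 13 genes with sgKcna1 lower and for 8 with sgKcna1 higher, where 13.3% and 8.98% of all genes did so. Of the remaining pore subunits of both families, 0 of 3 tested had an unadjusted p under 0.05, and 1 of the 3 had groups that did not overlap, with sgKcna1 higher. Their median log2 fold change was 0.23.

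Among channel partners and anchors, 5 of 13 tested genes had an unadjusted p under 0.05 (23.2% of all genes), 3 lower and 2 higher, and the median log2 fold change was -0.05. Calm2 and Calm3 encode calmodulin, which is bound to Kv7 subunits. For Calm2 the values were 854, 800 and 1290 in sgLacZ against 1297, 1226 and 1224 in sgKcna1 (log2 fold change 0.38, limma adjusted p = 0.262), and for Calm3 the log2 fold change was -0.05. The direction of Calm3 turned to 0.04 after median-of-ratios scaling and to 0.08 after scaling to the 7 pan-neuronal markers other than Tubb3. Pex5l encodes TRIP8b, the auxiliary subunit that controls HCN trafficking and cAMP sensitivity. It was listed at 7, 4 and 4 in sgLacZ and at 2, 2 and 3 in sgKcna1 (log2 fold change -0.82, limma adjusted p = 0.144). At such small values, rounding alone allows a log2 fold change of Pex5l anywhere between -1.19 and -0.49. The small auxiliary subunit gene Kcne1l was listed at 21, 16 and 17 against 8, 5 and 14 (log2 fold change -1.02, limma adjusted p = 0.124). Vapa, which encodes a membrane protein of the endoplasmic reticulum, was listed at 204, 197 and 119 against 93, 90 and 62 (log2 fold change -1.06, limma adjusted p = 0.0602). Ank3 encodes ankyrin-G, which anchors Kv7 channels at the axon initial segment, and was listed at 396, 444 and 506 against 644, 511 and 606 (log2 fold change 0.39, limma adjusted p = 0.13). The groups were apart for Pex5l, Kcne1l, Vapa and Ank3, but their adjusted p-values missed the threshold, and groups were apart for 22.2% of all genes tested.

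In the Gq receptor and PIP2 pathway, 6 of 16 tested genes had an unadjusted p under 0.05 (23.2% of all genes), 4 lower and 2 higher, and the median log2 fold change was 0.05. Groups did not overlap for 4 genes of this list with sgKcna1 lower and for 3 with sgKcna1 higher. The 2 listed Gq-class alpha subunit genes were lower in all 3 sgKcna1 libraries, as were 13.3% of all genes tested. Gnaq was listed at 281, 261 and 185 in sgLacZ and at 150, 131 and 148 in sgKcna1, a log2 fold change of -0.74 (SE 0.17, limma adjusted p = 0.0556). Gna11 was listed at 188, 200 and 112 against 96, 104 and 87, a log2 fold change of -0.75 (SE 0.22, limma adjusted p = 0.0986). For both genes, replicate 3 was the sgLacZ library nearest to the sgKcna1 values. The metabotropic glutamate receptor gene Grm5 had a log2 fold change of -0.27 (limma adjusted p = 0.174), and the muscarinic receptor gene Chrm3, listed at 37, 45 and 59 against 67, 69 and 66, one of 0.53 (limma adjusted p = 0.118). Without sgLacZ replicate 3, Gnaq (adjusted p = 0.0181), Gna11 (0.0181) and Chrm3 (0.0284) passed the threshold of limma, as did 2711 of 19122 genes in that fit. With any 1 of the other 5 libraries left out, the limma adjusted p of Gnaq, Gna11 and Chrm3 lay between 0.166 and 0.324.

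In the cAMP pathway, 7 of 19 tested genes had an unadjusted p under 0.05 (23.2% of all genes), 5 lower and 2 higher, and the median log2 fold change was -0.16. Gnas, the stimulatory alpha subunit that activates adenylyl cyclases, was listed at 354, 345 and 243 in sgLacZ and at 213, 155 and 169 in sgKcna1 (log2 fold change -0.80, SE 0.18, limma adjusted p = 0.056). Gnai3, an inhibitory alpha subunit, was listed at 48, 47 and 26 against 21, 15 and 13 (log2 fold change -1.23, limma adjusted p = 0.0561). The adenylyl cyclase gene Adcy6 was listed at 24, 21 and 18 against 10, 13 and 13 (log2 fold change -0.76, limma adjusted p = 0.0608). Gnao1 (log2 fold change -0.13, limma adjusted p = 0.407) and Gnai2 (-0.16, limma adjusted p = 0.422), the remaining highest genes of the list, had groups that overlapped. The groups of the alpha subunit gene Gnal (-0.29) also overlapped. Those of Gnai1, listed at 113, 98 and 104 against 89, 83 and 90, were apart (log2 fold change -0.26, limma adjusted p = 0.162). The 2 genes higher at an unadjusted p under 0.05 were the phosphodiesterase gene Pde4d, listed at 25, 32 and 34 against 48, 42 and 42 (log2 fold change 0.53, limma adjusted p = 0.0888), and the adenylyl cyclase gene Adcy9, listed at 24, 30 and 29 against 33, 38 and 45 (log2 fold change 0.46, limma adjusted p = 0.135). The groups of Pde4d and Adcy9 were apart. In this list groups were apart for 5 genes with sgKcna1 lower and for 3 with sgKcna1 higher, where 13.3% and 8.98% of all genes were. Gnaq, Gnas, Gnai3 and the channel partner gene Vapa each passed the threshold in 8 of the 16 other settings, Adcy6 in 6 and Gna11 in 5. Their direction was the same in all 16. None passed with a pseudocount of 0.5, without the trend or with the replicate block. In the settings where they passed, between 1543 and 3536 genes passed in all. These settings include the fit without a low-value filter, which is unreliable, and the 3 settings added after seeing the data. Of the transcription regulators, 0 of 4 had an unadjusted p under 0.05, with log2 fold changes of -0.25 for Rcor1, -0.20 for Rcor2 and -0.16 for Sp1.

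**Figure D4:**
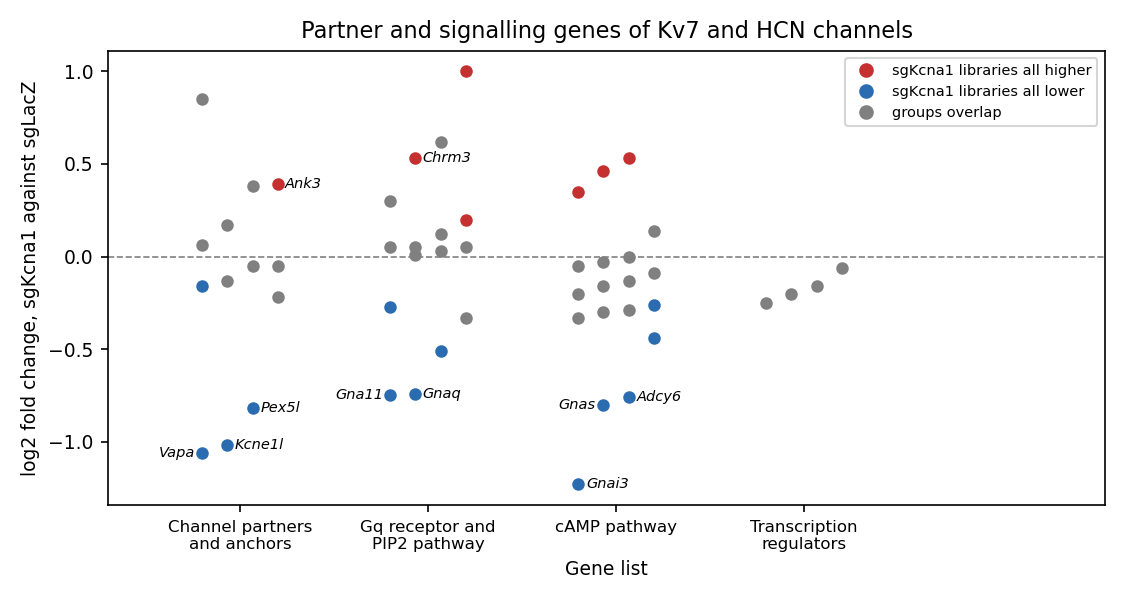
Log2 fold change of sgKcna1 against sgLacZ neurons (vertical axis) for each tested gene of 4 lists of channel partners, Gq and PIP2 signalling, cAMP signalling and transcription regulators. Red and blue points are genes whose sgKcna1 values were all above or all below the sgLacZ values, and grey points overlap. Of the 8 G protein alpha subunit genes, Gnaq, Gna11, Gnas and Gnai3 lie between -0.74 and -1.23 and the other 4 between -0.29 and -0.13, and no point passed an adjusted p of 0.05.

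Summed markers of several other cell types differed between the groups, whereas markers of neurons went in both directions. In bulk RNA, fewer cells of a type and less RNA per cell cannot be told apart. The summed values of 8 pan-neuronal markers were from 6021 to 6873 in sgLacZ and from 7026 to 8392 in sgKcna1, although 4 of the 8 genes were higher and 4 lower. The higher sum came from the tubulin gene Tubb3 alone, listed at 1862, 1752 and 2605 in sgLacZ and at 3855, 3221 and 4591 in sgKcna1. The other 7 markers summed to between 4159 and 4306 in sgLacZ and to between 3801 and 4037 in sgKcna1, so that without Tubb3 the sum was lower in sgKcna1. Astrocyte markers (10 of 10 above 0) summed to between 961 and 1069 against 702 to 718, oligodendrocyte lineage markers (8 of 10 above 0, Mag and Mog at 0) to between 72 and 104 against 47 to 51, and markers of dividing cells (8 of 8) to between 112 and 117 against 65 to 73. Microglial markers (8 of 10 above 0, Tmem119 and P2ry12 at 0) summed to between 23 and 28 against 58 to 78. The excitatory neuron markers (8 of 8) summed to between 1273 and 1418 against 1206 to 1272, with 2 genes higher and 6 lower. The 2 higher ones were Camk2a (88, 93 and 124 against 146, 145 and 175) and Slc17a7 (33, 29 and 41 against 47, 54 and 57). The inhibitory neuron markers (7 of 8, Pvalb at 0) summed to between 261 and 280 against 254 to 307, with 3 higher and 4 lower. Of the 6 hippocampal neuron markers, 5 were above 0 and Lct was at 0, with sums of 1512 to 1659 and 1408 to 1657. The part of these differences in the values of *Kcnq5* and of the G protein genes was not tested.

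**Figure D5:**
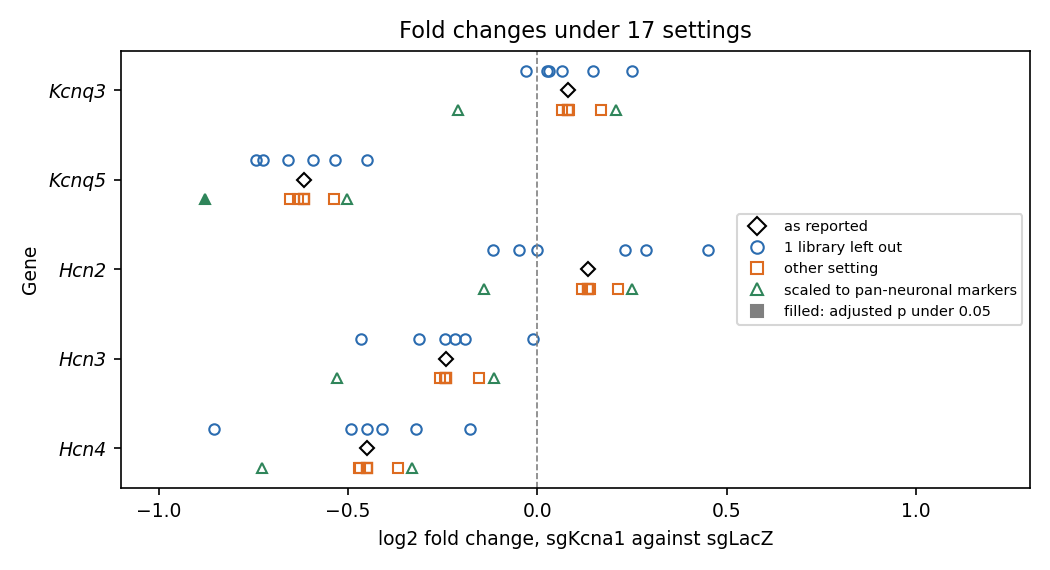
Log2 fold change of the 5 genes (horizontal axis) under 17 settings. Diamonds are the reported fit, circles leave out 1 library each, squares change a scaling, filter, pseudocount or variance model, triangles scale to pan-neuronal markers with and without Tubb3, and filled marks have an adjusted p under 0.05. *Kcnq5* stays below 0 throughout, from -0.88 to -0.45, with 1 filled mark, and *Kcnq3* and *Hcn2* lie on both sides of 0.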

How the data were processed

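RNA of 6 primary neuron libraries, 3 sgLacZ and 3 sgKcna1, was sequenced with a QuantSeq 3′ FWD kit. The deposited files hold a score per gene symbol, a whole number that the authors appear to have scaled to 1000000 per library and rounded. This was inferred from the library totals, and no counts could be recovered. The paper names Bowtie2 and NCBI37/mm9, whereas the authors' processing notes, as submitted, name STAR 2.7, featureCounts, DESeq2 and mm10. Of 50508 symbols, 28811 are in GENCODE vM1 (NCBIM37), which gave the coordinates and coding sequences printed here. Because the values are not counts, groups were compared with limma 3.58.1 in R 4.3.3 (lmFit, eBayes with an intensity trend) on log2(value + 1), over 19504 genes above 0 in at least 1 library, with Benjamini-Hochberg adjustment and a threshold of 0.05. The fit was tested on simulated data, with noise taken from these libraries after a first version with assumed noise had failed. It recovered most large changes and no change of a size somewhat above that fitted for any member. The simulated noise depended only on the level of a gene, and changes were placed only in genes not near 0. Recovery in the real data may therefore differ. A member missing the threshold is not shown to be unchanged. Exact permutation tests used scipy 1.17.1.

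The members, lists, tests and alternatives were chosen with earlier results of these data known. Named genes were the members, *Kcna1*, list genes past the threshold, the 3 highest of each list and the 2 most like each member by Pearson r among genes with a mean of at least 10. Pex5l, Kcne1l, Vapa, Ank3, Chrm3, Gnai3, Adcy6, Gnal, Gnai1, Pde4d, Adcy9 and Tubb3 were chosen after their values were seen. The rule was not followed for pore subunits other than the 5 members and for some other genes it names, whose values, like some coding windows, are not reported here. Scaling to pan-neuronal markers, with and without Tubb3, and a robust variance were added after seeing the data.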

Additional observations from a re-analysis of the deposited data

How the results depend on the processing

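Across 16 alternative settings, *Kcnq5*, *Hcn3* and *Hcn4* kept their direction, and only *Kcnq5* passed the threshold in any of them. Scaling to the summed pan-neuronal markers gave log2 fold changes of -0.88 for *Kcnq5*, -0.21 for *Kcnq3* and -0.14 for *Hcn2*, the last 2 with the sign turned, and 1 member, 18 pathway genes (0 higher, 18 lower) and 3536 genes in all (403 higher, 3133 lower) past the threshold. Scaling to the other 7 of these markers, without Tubb3, gave 0 members, 8 pathway genes and 1916 genes in all (1245 higher, 671 lower), with *Kcnq5* at -0.50 and Calm3 at 0.081. With 1 library left out, log2 fold changes ranged from -0.031 to 0.25 for *Kcnq3*, from -0.12 to 0.45 for *Hcn2* and from -0.10 to 0.022 for Calm3, which was 0.040 with median-of-ratios factors. The number of pathway genes past the threshold, 0 as reported, was 5 for genes with a mean of at least 1, 11 without a low-value filter, 7 with median-of-ratios factors, 7 without Gm42418, 13 with a robust variance, and from 0 to 9 with 1 library left out (9 without sgLacZ replicate 3). Over all genes, 226 passed as reported (68 higher, 158 lower), against 10 with a pseudocount of 0.5, 1543 for genes with a mean of at least 1 (568 higher, 975 lower), 2405 without a filter, where more than 1 in 2 residual variances were 0 and the fit is unreliable, 1721 with median-of-ratios factors (963 higher, 758 lower), 1808 without Gm42418, 2884 with a robust variance and from 0 to 2711 with 1 library left out (2711 without sgLacZ replicate 3 and 0 without any other). The cause was not tested. Without the trend, 117 were higher and 84 lower.

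Libraries with the same replicate number deviated together with correlations of 0.01, 0.11 and 0.15 across 8050 genes, so that the numbers were not taken to pair the libraries. With the replicate block 0 genes passed, 0 members and 0 pathway genes among them, *Kcna1* had an adjusted p of 0.111 from limma, and not every library correlated best with its own number. Depth is unknown, and for values near 10 the rounding and the spread between 3 libraries leave confidence intervals as wide as 0.627 to 1.92 as a fold (*Hcn2*).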
